A study of Mus musculus with 12 samples.

Results

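Mouse small intestinal organoids given the cytokine RANKL for 6 days were compared, gene by gene, with organoids kept in ENR medium. The comparison used 6 of the 12 RNA-seq libraries of the series, the 3 labelled RANKL and the 3 labelled as ENR medium controls, both at day 6. All cultures came from a female mouse of the line labelled line26 wild type, Lgr5GFPDTR/+, which carries a GFP and diphtheria toxin receptor allele at Lgr5, and were grown in a basement membrane extract. RANKL cultures were first kept for 3 days with 1.5 mM valproic acid, which inhibits histone deacetylases, and 3 µM CHIR99021, which switches on Wnt signalling by inhibiting GSK3. ENR medium, named for EGF, Noggin and R-spondin, followed for 1 day, and then 100 ng/mL RANKL for 6 days. Control cultures had ENR medium for 6 days per the labels. The deposited control names begin with CVENR, a prefix that no label explains, so whether the controls also had CHIR99021 and valproic acid is not stated, and effects of that pretreatment and of RANKL cannot be told apart if they did not. Replicates are separate differentiation experiments on organoids of that mouse, so the p-values measure the spread between experiments and not between animals.

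RANKL is a TNF family ligand made by stromal cells under the epithelium that covers lymphoid follicles of the gut. It binds RANK, the product of Tnfrsf11a, which recruits TRAF adaptors and releases NF-kB dimers, by degradation of IkB proteins in the canonical arm and by processing of the Nfkb2 product with Relb in the noncanonical arm. In the intestine this signal turns dividing epithelial cells into M cells, which carry particles and microbes across the epithelium to immune cells, and in bone it makes osteoclasts from myeloid precursors.

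The 6 libraries held 5795541 to 7719157 counts. Loci that collect ribosomal RNA reads, chiefly Gm26917 and Gm42418, took 31.0%, 21.9% and 35.5% of the counts in ENR control replicates 1 to 3 and 10.7%, 9.72% and 9.85% with RANKL, which left 3736031 to 6907373 counts elsewhere. The groups also differed in a trend with base composition. The slope of log2 CPM (counts scaled to library size with TMM factors, less the mean over the 6 libraries) against transcript GC content was 0.0208, 0.000565 and 0.0255 per percent GC in the controls and -0.0128, -0.0156 and -0.0184 with RANKL. ENR control replicate 2, with the smallest ribosomal RNA share of the controls, was also the control with the flattest slope. Both measures separate the groups, so neither can be told apart from the treatment over the 6 libraries.

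**Figure D1:**
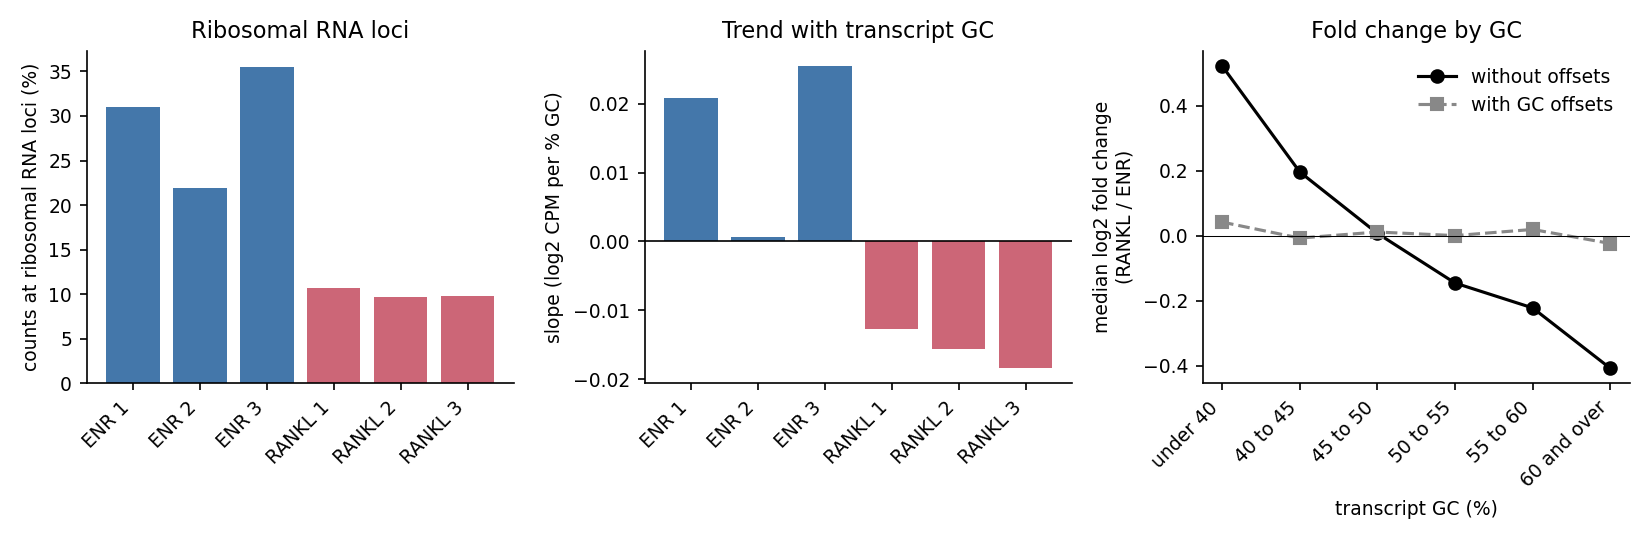
Left, the share of counts (%) at ribosomal RNA loci in each of the 6 libraries. Middle, the slope of log2 CPM against transcript GC content in each library. Right, the median log2 fold change (RANKL over ENR control) of genes in 6 bins of transcript GC, without offsets (black) and with GC offsets (grey). The bin medians ran from 0.52 under 40% GC to -0.41 at 60% and over, and lay between -0.02 and 0.04 with offsets.

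In edgeR's quasi-likelihood test 7699 of 13570 genes passed a Benjamini-Hochberg adjusted p under 0.05, or 56.7% of those tested. Of these 3897 genes (28.7%) were higher with RANKL and 3802 (28.0%) were lower. Across 13382 genes, which are no independent replicates, Spearman's rho between log2 fold change and transcript GC content was -0.316. A second fit therefore gave each library an offset for its own GC trend, after which rho was -0.000343. It called 7242 genes, 3734 higher and 3508 lower. In both fits 3117 genes (23.0% of those tested) were higher and 3011 (22.2%) lower, and "rose" and "fell" below are used only of these. The calls of 18 genes had opposite signs in the fits. At least 2-fold in both fits, 1275 genes rose and 691 fell, and the libraries of the groups did not overlap in 1958 of these 1966. The same held for 7430 of all 7699 genes called, so it is common to called genes and adds no support. Most genes named below were picked among those whose groups do not overlap, so that feature of a named gene describes the choice. At least 8-fold in both fits, 353 rose and 55 fell.

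With the ribosomal RNA share of each library as a covariate, which follows the groups closely, edgeR called 2888 genes, 1442 higher and 1446 lower. Of the 1966 genes changed at least 2-fold in both fits, 1905 kept their sign in that fit and 1130 were called with it. The part of the ribosomal RNA share in the other calls was not tested. A call lost with the covariate need not mean a smaller estimate, since the covariate and the groups are hard to separate. Kcnj15, for example, had log2 8.54 without the covariate and 8.87 with it, not called. Tcirg1, also not called with it, had -1.04 and -0.056. Below, the members of a gene group called higher and lower in this fit are given in parentheses after the counts of those that rose and fell. For comparison, over all 13570 genes 23.0% rose and 22.2% fell, and 1442 were higher and 1446 lower with the covariate.

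**Figure D2:**
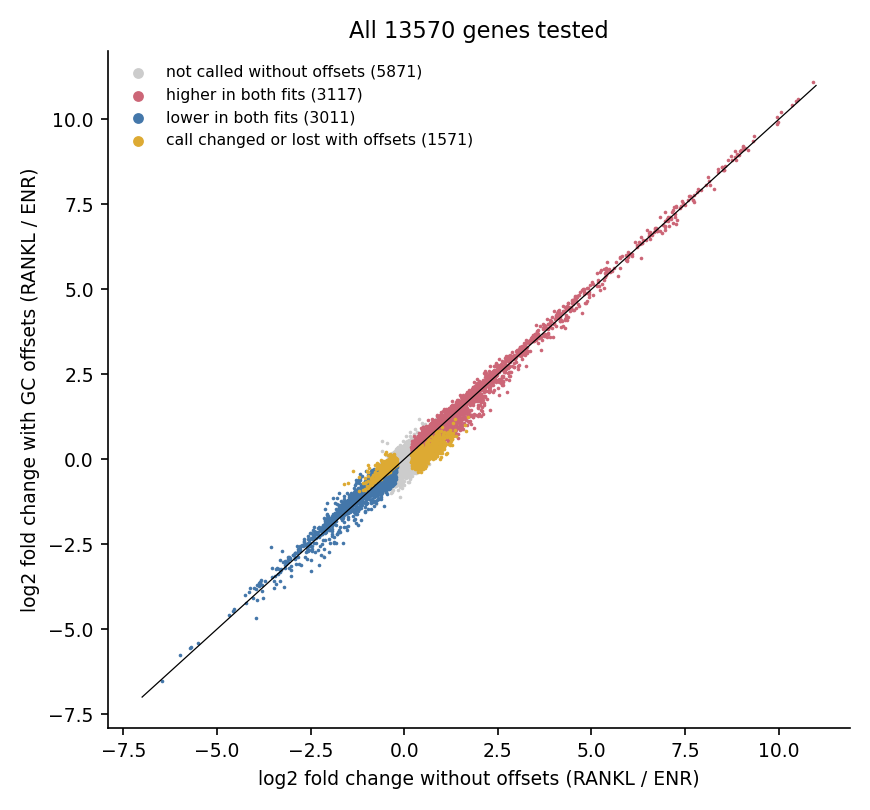
Log2 fold change (RANKL over ENR control) of all 13570 genes without offsets (horizontal axis) and with GC offsets (vertical axis), coloured by call. The 3117 genes that rose and 3011 that fell in both fits follow the diagonal line of equal values, and the 1571 genes whose call was lost or changed sign with offsets lie toward the centre.

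Tnfrsf11a, the gene of the RANKL receptor RANK (chr1:105780718-105847981), was at 60.5, 54.2 and 59.2 CPM in ENR control and 235, 266 and 254 CPM with RANKL, a log2 change of 2.12 (SE 0.0886, adjusted p = 2.27e-11). Every RANKL library lay above every control, and the groups were likewise apart in 7430 of all 7699 genes called. Of the 11 subunit and IkB genes of NF-kB, 9 rose and none fell (with the covariate, 6 higher and 0 lower), with a median log2 change of 1.01 against 0.003 over all genes tested. Nfkb2, which encodes the p100 precursor of the noncanonical arm, was at 62, 54.2 and 71.3 CPM in ENR control and 422, 415 and 393 CPM with RANKL (log2 change 2.72, SE 0.0994, adjusted p = 5.53e-12). Its partner Relb was at 28.8, 28.9 and 33.4 CPM in ENR control and 154, 161 and 164 CPM with RANKL (log2 change 2.40, SE 0.0925, adjusted p = 9.62e-12). The canonical subunit genes had smaller changes, at log2 0.35 for Nfkb1 and 0.23 for Rela. Rela lost its call when any one library other than ENR control replicate 1 was left out (adjusted p = 0.0504 to 0.104), and Rel lost its call with GC offsets (log2 change 0.44, and 0.22 with offsets).

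The IkB genes, whose proteins hold NF-kB in the cytoplasm and are themselves induced by it, held the largest change of those 11. Nfkbia was at 39, 39 and 46.8 CPM in ENR control and 443, 448 and 465 CPM with RANKL (log2 change 3.45, SE 0.0946, adjusted p = 3.2e-13). Nfkbie was at 3.84, 3.47 and 3.43 CPM in ENR control and 58.9, 62.4 and 62.4 CPM with RANKL (log2 change 4.09, SE 0.137, adjusted p = 2.31e-12). Neither gene's groups overlapped, a feature by which most named genes were picked. Bcl3, an atypical IkB protein, rose by 2.54 (log2), whereas Nfkbiz, another, was at 51.9 CPM in ENR control and 45.1 CPM with RANKL on average (log2 -0.19, not called, and lower at an adjusted p = 0.00359 without ENR control replicate 2). Of 21 tested kinases, adaptors and feedback enzymes, 13 rose and 2 fell (with the covariate, 9 higher and 0 lower). The ubiquitin-editing enzyme gene Tnfaip3 was at 17.3, 16.9 and 19 CPM in ENR control and 244, 252 and 263 CPM with RANKL (log2 change 3.84, SE 0.0966, adjusted p = 1.93e-13). Its partner Tnip3 went from 0 counts in the controls to at least 11.8-fold more, a direction fixed by the low-count filter. Birc3, Birc2, Traf3 and Traf2, whose proteins form the complex that keeps the NF-kB-inducing kinase low, rose, with log2 changes of 2.07, 1.50, 1.26 and 1.15. The gene of that kinase, Map3k14, was not called without offsets (log2 0.14) and was higher with GC offsets (log2 0.44). Not called in either fit were those of the IkB kinase subunits, Ikbkb (log2 -0.01) and Ikbkg (log2 0.08). Tab1 (log2 -0.55) and Tnip2 (log2 -0.80) fell. With the ribosomal RNA covariate the calls of Nfkb1, Rela, Ripk2, Tnip3, Tab1 and Tnip2 were lost, and Map3k14 was called higher (log2 1.08, adjusted p = 0.00451).

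Promoters of some of these genes carry a kB-type motif, the letters that NF-kB dimers are known to bind, and 7 pieces are shown, from 6 genes that rose and 1, Map3k7, that was not called. Other genes of these lists with a match are not printed. RefSeq promoter windows of GRCm38.p6, from 250 bases before to 50 after each annotated start, were searched for GGGNNTTTCC on both strands (GGAAANNCCC on the other). No other motif was searched. Each piece is printed 5′ to 3′ on the gene's own strand, with the match in capitals. They lie at chr12:55492642-55492701 (Nfkbia, minus strand), chr19:46304701-46304760 (Nfkb2, plus), chr10:19015388-19015447 (Tnfaip3, minus), chr12:111166335-111166394 (Traf3, plus), chr1:83116661-83116720 (Ccl20, plus), chr11:83578637-83578696 (Ccl9, minus) and chr4:31963990-31964049 (Map3k7, plus).
Nfkbia: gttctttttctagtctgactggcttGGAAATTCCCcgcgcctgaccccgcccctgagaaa
Nfkb2: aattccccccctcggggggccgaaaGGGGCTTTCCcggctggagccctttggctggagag
Tnfaip3: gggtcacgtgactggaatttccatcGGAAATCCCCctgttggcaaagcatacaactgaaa
Traf3: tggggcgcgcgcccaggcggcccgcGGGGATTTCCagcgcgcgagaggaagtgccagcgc
Ccl20: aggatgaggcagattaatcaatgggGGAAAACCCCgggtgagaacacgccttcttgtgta
Ccl9: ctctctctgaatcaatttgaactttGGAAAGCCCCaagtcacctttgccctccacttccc
Map3k7: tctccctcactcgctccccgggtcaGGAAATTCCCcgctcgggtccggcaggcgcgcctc

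The first 6 genes rose with RANKL, and Map3k7, which encodes the kinase TAK1, was not called (log2 0.17, and called without ENR control replicate 2, adjusted p = 0.037) although its promoter holds the motif. Over all 32851 RefSeq windows of that length 535 (1.63%) held a match. Among tested genes with a window the share was 2.08% (200 of 9628). It was 3.66% of the 2186 that rose, 5.04% of the 833 that rose at least 2-fold, and 1.43% of the 2237 that fell. By list, 3 of 8 NF-kB and IkB genes, 5 of 19 kinase, adaptor and feedback genes and 3 of 13 M cell genes with a window held one. A match is a description of letters and not of a bound site.

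Other members of the TNF families changed as well. Of 18 tested receptor genes of the superfamily 11 rose and 2 fell (with the covariate, 9 higher and 1 lower). Relt (log2 4.75), Tnfrsf19, the receptor TROY (log2 2.70), the death receptor gene Fas (log2 2.04) and Tnfrsf1b, a TNF receptor (log2 1.52), rose. Tnfrsf1a, the other TNF receptor, was not called without offsets (log2 0.18) and was higher with GC offsets (log2 0.40). Of 6 tested ligands 4 rose and 1 fell (with the covariate, 3 higher and 0 lower). Tnf was at 4.61, 5.2 and 5.71 CPM in ENR control and 24.5, 24.8 and 26.7 CPM with RANKL (log2 change 2.29, SE 0.149, adjusted p = 3.39e-09). Ltb, the lymphotoxin subunit, had 0 counts in every ENR control and 6.62, 10.6 and 11 CPM with RANKL, and was at least 53-fold higher. Its direction was thus fixed by the low-count filter. Tnfsf15 rose by 4.29 (log2) and Tnfsf10, or TRAIL, by 0.86 (log2), while Tnfsf13b, which encodes the B cell factor BAFF, fell (log2 change -1.92). Tnfsf11, the gene of RANKL itself, had 0 CPM in both groups. With the ribosomal RNA covariate the calls of Ltb (log2 0.37, adjusted p = 0.767) and Tnfsf13b (log2 -1.67, adjusted p = 0.0682) were lost.

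Genes that RANKL induces in bone changed in part. Of 20 listed osteoclast targets 9 were tested, 5 rose and 1 fell (with the covariate, 3 higher and 0 lower). Car2, the carbonic anhydrase that osteoclasts use to acidify bone, rose by 2.01 (log2) and Fos by 0.71 (log2). Nfatc1, the main transcription factor of osteoclasts, was at 30.7, 24.9 and 37.2 CPM in ENR control and 22.1, 22.7 and 25.1 CPM with RANKL (log2 change -0.39, and -0.21 with GC offsets, which ended the call), and the groups overlapped. Tcirg1, a proton pump subunit of the ruffled border, fell, from 103 to 49.6 CPM on average (log2 change -1.04, SE 0.15, adjusted p = 5.9e-05). The osteoclast fusion genes Dcstamp and Ocstamp and the pump subunit gene Atp6v0d2 had 0 counts in all 6 libraries. The call of Tcirg1 was lost with the ribosomal RNA covariate (adjusted p = 0.891).

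Of 19 listed M cell genes 17 were tested. All 17 tested members of the list rose, with a median log2 change of 4.38 (4.28 with genes at 0 set at their bounds), and 11 were called higher with the ribosomal RNA covariate. The 2 at 0 counts in every control passed the low-count filter through their RANKL counts alone, so they could only come out higher. The M cell list is known to respond in these libraries and is given as a reference point. Spib, the ETS factor needed for M cell maturation (chr7:44525993-44532071), was at 3.26, 6.53 and 3.43 CPM in ENR control and 265, 258 and 249 CPM with RANKL (log2 change 5.77, SE 0.155, adjusted p = 2.9e-13). Sox8, which acts on Gp2, had 0 counts in every ENR control and 8.53, 8.25 and 7.45 CPM with RANKL, and was at least 46.2-fold higher. Gp2, the uptake receptor of mature M cells, had 0 counts in every ENR control and 2.81, 2.15 and 2.17 CPM with RANKL, and was at least 13.6-fold higher but still low. Rac2, a small GTPase of phagocytes and M cells, was at 0, 0.133 and 1.14 CPM in ENR control and 58.5, 55.3 and 56.2 CPM with RANKL. With the ribosomal RNA covariate Sox8 (log2 10.3, adjusted p = 0.0607) and Gp2 (log2 11.6, adjusted p = 0.125) were not called, although their estimates were not smaller. In bulk RNA a larger share of M cells and more RNA per cell cannot be told apart, here or for any gene below.

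**Figure D3:**
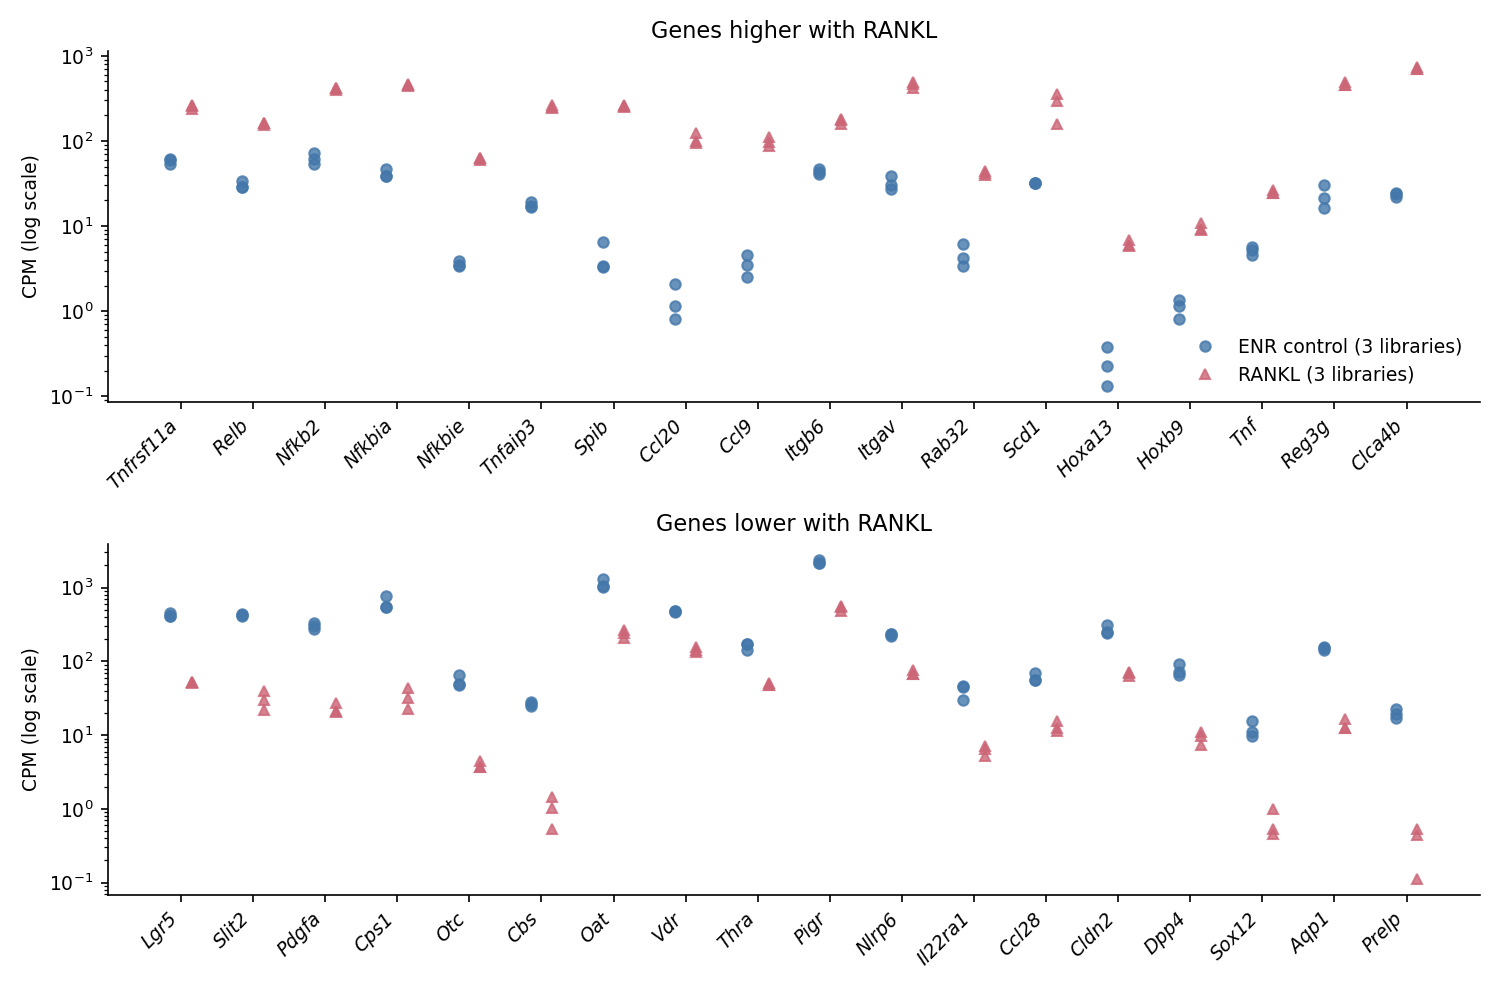
CPM (log axis) of 18 genes that rose (top) and 18 that fell (bottom) in each of the 3 ENR control libraries (circles) and the 3 RANKL libraries (triangles). The genes were picked among those whose groups do not overlap, so the triangles lie on one side of the circles. Spib, for example, was at 3.26 to 6.53 CPM in the controls and at 249 to 265 CPM with RANKL.

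Chemokine and immune genes moved in both directions. Of 9 tested chemokine genes 6 rose and 1 fell (with the covariate, 4 higher and 1 lower). Ccl20, which draws CCR6-bearing lymphocytes, was at 2.11, 0.80 and 1.14 CPM in ENR control and 123, 99 and 93.8 CPM with RANKL (log2 change 6.33, SE 0.212, adjusted p = 2.31e-12). Ccl9 was at 2.5, 3.47 and 4.57 CPM in ENR control and 112, 96.9 and 86.7 CPM with RANKL (log2 change 4.83, SE 0.168, adjusted p = 3.23e-12), and Cxcl16 rose by 4.28 (log2). Ccl28, the epithelial chemokine for IgA plasma cells, went the other way, at 56.4, 70.6 and 55.5 CPM in ENR control and 11.4, 12.3 and 15.4 CPM with RANKL (log2 change -2.24, SE 0.135, adjusted p = 1.4e-09). Pigr, the receptor that carries IgA across the epithelium, also fell, at 2121, 2381 and 2121 CPM in ENR control and 480.4, 544 and 555 CPM with RANKL (log2 change -2.07, SE 0.0902, adjusted p = 3.65e-11). Every RANKL library was below the lowest control for both genes, which were picked among genes whose groups do not overlap.

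Receptors for cytokines of the gut split too. Il22ra1, the epithelial receptor subunit for IL-22, was at 44.5, 29.6 and 46.8 CPM in ENR control and 5.16, 6.44 and 7.04 CPM with RANKL (log2 change -2.68, SE 0.186, adjusted p = 7.4e-09), and Il1rap fell from 10.4 to 1.86 CPM on average. Il4ra (log2 2.02), Il6st, the shared gp130 subunit (log2 1.80), and Il1rn, the IL-1 receptor antagonist (log2 2.25), rose. Over 23 tested interleukins and receptors 9 rose and 3 fell (with the covariate, 3 higher and 3 lower). Without offsets 5 were lower, and 3 without ENR control replicate 3.

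Among 18 tested microbial sensors 9 rose and 4 fell (with the covariate, 5 higher and 2 lower). Pglyrp2, an amidase that cuts peptidoglycan, was at 0.192, 0 and 0.457 CPM in ENR control and 218, 197 and 208 CPM with RANKL, a count ratio of 1183 (exact interval 405 to 5738), the interval covering counting error only. Nod2, which senses muramyl dipeptide, was at 7.1, 4.93 and 8.23 CPM in ENR control and 22.8, 26.1 and 23.4 CPM with RANKL (log2 change 1.89, SE 0.168, adjusted p = 1.41e-07), and its kinase Ripk2 rose by 1.58 (log2). The inflammasome sensor gene Nlrp6 was at 222, 235 and 237 CPM in ENR control and 75.5, 67.7 and 67.3 CPM with RANKL (log2 change -1.72, SE 0.0833, adjusted p = 1.15e-10), and Nod1 fell from 35.6 to 20.2 CPM on average. The antimicrobial lectin gene Reg3g was at 30.3, 21.6 and 16.2 CPM in ENR control and 448, 452 and 486 CPM with RANKL (log2 change 4.34, SE 0.145, adjusted p = 2.84e-12), and C3, the central complement component, at 0.192, 0.533 and 0.228 CPM in ENR control and 8.98, 11 and 12.5 CPM with RANKL (log2 change 4.87, SE 0.355, adjusted p = 1.14e-08). With the ribosomal RNA covariate C3 (log2 2.42) and Nod1 (log2 -0.27) were not called.

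Antigen presentation showed a split within class II. Cd74, the invariant chain, had 0.192, 0 and 0 CPM in ENR control and 39.3, 44.1 and 36.6 CPM with RANKL, a count ratio of 686 (exact interval 123 to 27140.0). The class II chains it serves stayed near 0, with H2-Aa at 0 and 0.037, H2-Ab1 at 0 and 0.27 and H2-Eb1 at 0 and 0.39 CPM on average in ENR control and RANKL, all too low to be tested. Ciita, the class II activator, was at 0.82 and 1.0 CPM and was not tested either. In class I, 9 of 18 tested genes rose and 2 fell (with the covariate, 5 higher and 0 lower). H2-M2, a nonclassical gene, was at 0, 0 and 0.457 CPM in ENR control and 66.9, 70.5 and 62.7 CPM with RANKL, a count ratio of 572 (exact interval 158 to 4726), B2m rose by 1.18 (log2), and the classical genes H2-D1 and H2-K1 had log2 changes of 0.27 and 0.05, the latter not called without offsets and higher with GC offsets (log2 0.24). Of 6 tested guanylate-binding proteins and immunity GTPases, which are induced by interferon, 3 rose and 1 fell (with the covariate, 3 higher and 0 lower). Gbp9 and Gbp4 had 0 counts in every control and were at least 99.7-fold and 58.7-fold higher. Both passed the low-count filter through their RANKL counts alone, so their direction was fixed. Gbp8 (log2 6.97) was the third that rose, Irgm1 fell (log2 -0.97), and the other 2 were not called. The call of Irgm1 was lost with the ribosomal RNA covariate (adjusted p = 0.701). Irf1, an interferon regulatory factor, rose by 1.26 (log2), while Irf8 fell (log2 -1.72).

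Genes of vesicle traffic and the cell cortex rose more often than they fell. Of 45 tested Rab GTPases 18 rose (40%) and 4 fell (8.89%), against 23.0% and 22.2% of all genes, with a median of 0.32. With the covariate 3 were higher and 2 lower, smaller shares than over all genes (1442 and 1446 of 13570). Without offsets 5 Rab genes were lower, and 3 without RANKL replicate 3. Rab32, of lysosome-related organelles and phagosomes, was at 4.22, 6.13 and 3.43 CPM in ENR control and 39.3, 44.3 and 41.6 CPM with RANKL (log2 change 3.11, SE 0.163, adjusted p = 2.7e-10), and Rab31 rose by 2.86 (log2). Of 17 proton pump subunits and accessory proteins with Atp6 symbols 8 rose, all by less than 2-fold, and none fell (with the covariate, 2 higher and 0 lower). With the covariate the share higher was near that over all genes. Tcirg1, the pump subunit that fell, is not in that list. Annexins, calcium-dependent membrane binders, gave 7 higher and 2 lower of 12 (with the covariate, 5 higher and 1 lower). Anxa5, which binds phosphatidylserine, was at 4.8, 9.33 and 6.4 CPM in ENR control and 306, 311 and 335 CPM with RANKL (log2 change 5.47, SE 0.146, adjusted p = 2.9e-13), and Anxa4 fell (log2 -0.39). Of 33 actin and membrane regulators 20 rose and 3 fell (with the covariate, 11 higher and 0 lower), among them the actin-sequestering Tmsb4x at a log2 change of 2.48 and the microvillus motor Myo1a at a log2 change of -0.48. The call of Myo1a was lost with the ribosomal RNA covariate.

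Adhesion and cytoskeletal families changed member by member. Of 15 tested integrin genes 9 rose and none fell (with the covariate, 4 higher and 0 lower). Itgav was at 30.3, 38.5 and 27.2 CPM in ENR control and 424, 472 and 499 CPM with RANKL (log2 change 3.84, SE 0.119, adjusted p = 1.16e-12). Itgb8 was at 0, 0 and 0.685 CPM in ENR control and 23.5, 31.9 and 33.4 CPM with RANKL, a count ratio of 167 (exact interval 57 to 813), and Itgb6 rose by 1.98 (log2). Itgb6 and Itgb8 encode the beta chains that pair with the Itgav product to release active TGF-beta. Of 11 tested keratins 9 rose and 1 fell (with the covariate, 5 higher and 1 lower). Krt20, a keratin of differentiated cells, rose by 2.61 (log2) and Krt7 by 0.91 (log2), whereas Krt18, partner of Krt8, fell from 707 to 394 CPM on average (log2 -0.84). The wound keratin Krt16 was at 0, 0 and 0.228 CPM in ENR control and 10.1, 10.7 and 14.8 CPM with RANKL, a count ratio of 199.8 (exact interval 35.6 to 7919). All 6 tested clade B serpins, intracellular protease inhibitors, rose, with log2 changes of 1.97 to 6.84 (with the covariate, 4 higher and 0 lower). Itgb8 (log2 7.27) and Krt16 (log2 7.53) were not called with the ribosomal RNA covariate.

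Matrix and junction genes changed both ways. Lama3, a laminin chain, was at 1.73, 1.6 and 2.51 CPM in ENR control and 41, 41.8 and 46.4 CPM with RANKL (log2 change 4.50, SE 0.176, adjusted p = 1.13e-11), and Col4a1 went from 0 counts in the controls to at least 51.9-fold more. Of 7 tested claudins 2 rose and 2 fell (with the covariate, 2 higher and 4 lower), or 28.6% each way, not far from the 23.0% and 22.2% of all genes. Cldn2, the pore-forming claudin of the crypt, was at 241, 308 and 248 CPM in ENR control and 63.5, 70.7 and 69.5 CPM with RANKL (log2 change -1.97, SE 0.101, adjusted p = 2.29e-10) and Cldn4 rose by 1.16 (log2). Of 14 Eph receptors and ephrins 3 rose and 6 fell (with the covariate, 4 higher and 3 lower), among them Ephb2, which positions crypt cells, at a log2 change of -0.87 against Epha2 at a log2 change of 1.30. Mylk, the myosin light chain kinase, was at 12.7, 14.9 and 18.3 CPM in ENR control and 363, 376 and 409 CPM with RANKL (log2 change 4.66, SE 0.117, adjusted p = 1.93e-13). The 3 RANKL libraries of Mylk lay far above every control, and genes were picked for groups that do not overlap.

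Secreted enzymes of the matrix rose more often than they fell, with 13 higher and 4 lower of 23 metalloproteinases and inhibitors (with the covariate, 5 higher and 2 lower). Mmp20, known from tooth enamel, was at 1.15, 0.666 and 0.457 CPM in ENR control and 29.5, 31.4 and 26.7 CPM with RANKL (log2 change 5.23, SE 0.232, adjusted p = 3.96e-11). Mmp7, which activates Paneth cell defensins, was at 63.7, 40.6 and 67.2 CPM in ENR control and 237, 251 and 266 CPM with RANKL (log2 change 2.16, SE 0.143, adjusted p = 1.88e-08). Mmp7 thus rose, although 8 of 10 Paneth cell genes fell (with the covariate, 2 higher and 5 lower). Mmp15, a membrane-bound member, rose by 1.58 (log2), and Adamts17 (log2 -2.54) and Adamts10 (log2 -1.85) fell. Of 11 cathepsins, proteases of the lysosome, 5 rose and 2 fell (with the covariate, 3 higher and 1 lower), with Ctsh at 71.6, 74.4 and 70.8 CPM in ENR control and 185, 171 and 167 CPM with RANKL (log2 change 1.27, SE 0.0825, adjusted p = 3.56e-09).

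Crypt and Wnt genes fell on balance. Of 18 tested stem cell genes 10 fell and 4 rose (with the covariate, 2 higher and 10 lower), and of 14 Wnt targets and feedback genes 9 fell and 3 rose (with the covariate, 2 higher and 5 lower). Lgr5, the R-spondin receptor of crypt stem cells (chr10:115450311-115587780), was at 409, 458 and 407 CPM in ENR control and 53.1, 52.6 and 50.8 CPM with RANKL (log2 change -3.03, SE 0.087, adjusted p = 5.35e-13). Of the members that rose, Ascl2, a stem cell factor, was at a log2 change of 1.21, Cd44 at a log2 change of 1.03 and Ccnd1, cyclin D1, at a log2 change of 0.78. The ligand gene Wnt10a had 0 counts in every ENR control and 29.9, 33.1 and 40.1 CPM with RANKL, and was at least 194-fold higher, although it was not called with the ribosomal RNA covariate (adjusted p = 0.0618). Lgr5 was called lower with that covariate too, whereas the call of Ascl2 was lost (adjusted p = 0.202).

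Transcription factor families differed in direction. Of 31 tested nuclear receptors 17 fell and 3 rose, with a median of -0.68 (with the covariate, 3 higher and 8 lower). Vdr, the vitamin D receptor, was at 476, 472 and 481 CPM in ENR control and 134, 145 and 157 CPM with RANKL (log2 change -1.71, SE 0.082, adjusted p = 9.95e-11). Thra, a thyroid hormone receptor, was at 174, 141 and 171 CPM in ENR control and 47.1, 51 and 47.3 CPM with RANKL (log2 change -1.74, SE 0.0966, adjusted p = 5.51e-10). Thrb (log2 -1.82), the xenobiotic receptor gene Nr1i3 (log2 -2.02) and Nr1h4, which encodes the bile acid receptor FXR (log2 -1.43), fell as well. The 3 that rose were Esrrg (log2 2.01), Pparg (log2 0.80) and Ppard (log2 0.43). Esrrg (log2 2.70) and Nr1h4 (log2 -0.64) were not called with the ribosomal RNA covariate.

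Of 13 tested Hox genes 8 fell and 3 rose (with the covariate, 2 higher and 2 lower), and the members that rose were posterior ones. Hoxa13 was at 0.384, 0.133 and 0.228 CPM in ENR control and 5.84, 6.78 and 5.96 CPM with RANKL (log2 change 4.62, SE 0.40, adjusted p = 7.91e-08). Hoxb9 was at 1.344, 0.80 and 1.14 CPM in ENR control and 10.8, 9.15 and 9.07 CPM with RANKL (log2 change 3.18, SE 0.266, adjusted p = 6.49e-08), and Hoxa10 rose by 0.63 (log2). The 8 that fell, Hoxa3 to Hoxa7, Hoxc6, Hoxd3 and Hoxd4, had log2 changes of -1.85 to -0.94, and of these Hoxa3 and Hoxa7 alone were called with the ribosomal RNA covariate. Of 8 Sox genes, Sox8 and Sox4 (log2 0.90) rose and 5 fell (with the covariate, 1 higher and 4 lower), with Sox12 at 9.79, 11.2 and 15.3 CPM in ENR control and 1.01, 0.452 and 0.542 CPM with RANKL (log2 change -4.11, SE 0.306, adjusted p = 1.61e-08). Among intestinal factors, Onecut2 was at 193, 190.4 and 207 CPM in ENR control and 469.8, 443 and 436 CPM with RANKL (log2 change 1.19, SE 0.0783, adjusted p = 3.93e-09, and 0.97 with GC offsets). Onecut3 (log2 -1.65) and Gata5 (log2 -1.14) fell, whereas Cdx1 (log2 0.48) and Hnf4g (log2 0.67) rose. Immediate-early genes were divided, with Jun at a log2 change of -1.19 and Egr1 at a log2 change of -1.0 against Junb at a log2 change of 0.98 and Ier3 at a log2 change of 1.60. The calls of Hoxa10, Onecut3, Cdx1, Hnf4g and Jun were lost with the ribosomal RNA covariate. The 328 tested numbered zinc finger genes gave 54 higher and 54 lower in both fits (with the covariate, 7 higher and 13 lower), or 16.5% each way, below the share over all genes. Of 92 that were higher without offsets, offsets ended 38 calls.

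**Figure D4:**
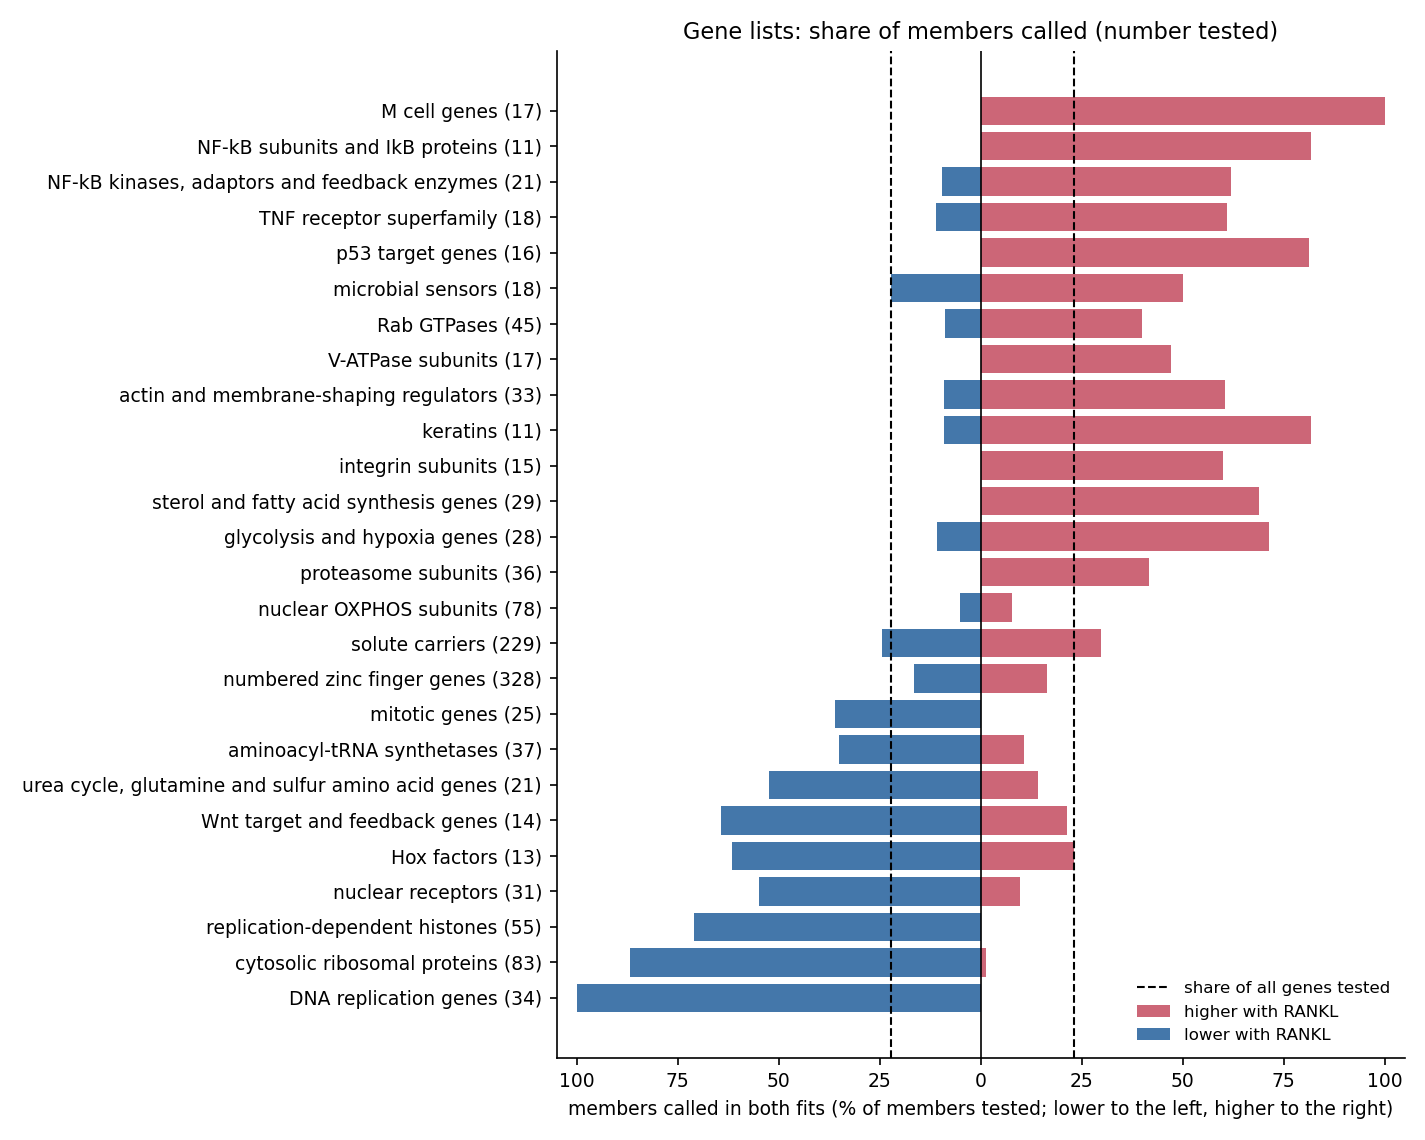
Share of tested members (%) of 26 gene lists that rose (right) or fell (left) in both fits, with the number tested in parentheses. Dashed lines mark the same shares over all 13570 genes, 23.0% higher and 22.2% lower. M cell genes reach 100% on the right and DNA replication genes 100% on the left.

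All 34 DNA replication genes fell (with the covariate, 0 higher and 28 lower), with a median of -0.83. Cdt1, which loads the replicative helicase, was at 83.5, 85 and 85.7 CPM in ENR control and 31.1, 29.9 and 32 CPM with RANKL (log2 change -1.45, SE 0.0872, adjusted p = 1.37e-09), and the helicase subunit gene Mcm5 at 137, 144 and 135 CPM in ENR control and 60.6, 54.8 and 51.9 CPM with RANKL (log2 change -1.31, SE 0.0867, adjusted p = 4.14e-09). The smallest fall was that of Pcna (log2 -0.51). Of 55 tested replication-dependent histone genes 39 fell and none rose (with the covariate, 0 higher and 31 lower), with a median of -0.88 (-0.52 with GC offsets). Of 25 genes of mitosis 9 fell and none rose (with the covariate, 0 higher and 0 lower), with a median of -0.20. Top2a was at 369, 374 and 349.6 CPM in ENR control and 346, 326 and 269 CPM with RANKL (log2 -0.22, not called without offsets, and -0.39, lower, with GC offsets). The difference between the lists was not tested. Of 16 p53 targets 13 rose and none fell (with the covariate, 11 higher and 0 lower), with Pmaip1, or NOXA, at a log2 change of 2.77.

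**Figure D5:**
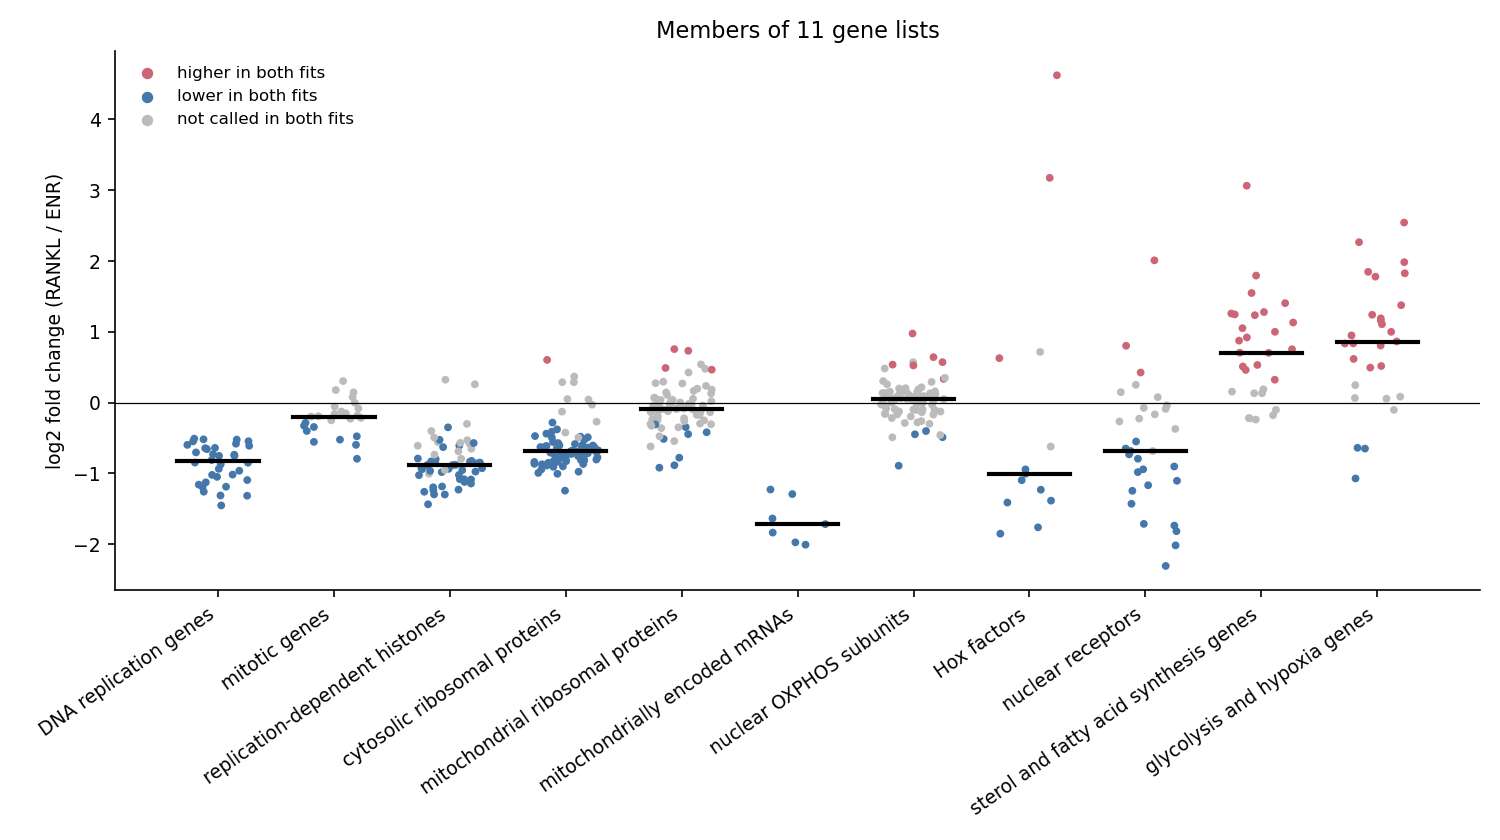
Log2 fold change (RANKL over ENR control) of each tested member of 11 gene lists, coloured by call, with the list median as a black bar. All 34 DNA replication genes lie below 0, from -1.45 to -0.51, while the 25 mitotic genes run from -0.79 to 0.30 and the 78 nuclear OXPHOS genes centre on 0.05.

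Of 83 tested cytosolic ribosomal protein genes 72 fell and 1 rose (with the covariate, 0 higher and 72 lower), with a median of -0.69. Rpl4 was at 1990.4, 2080.0 and 1934 CPM in ENR control and 1132, 1164 and 1135 CPM with RANKL (log2 change -0.81, SE 0.078, adjusted p = 3.55e-07). Rps27l, a p53-induced paralog, was the member that rose (log2 0.60), a call that was lost with the covariate. Mitochondrial ribosomal protein genes were mostly not called, with 4 higher and 8 lower of 77 (with the covariate, 2 higher and 4 lower). The 5 higher without offsets became 2 to 8 with 1 library left out, 2 without ENR control replicate 3 and 8 without ENR control replicate 2. Many ribosomal protein genes have near-identical processed copies, and the sources used here do not say how the counting shared reads among them.

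Of 13 mRNAs of the mitochondrial genome, all with a count, 7 passed the low-count filter, and all 7 fell. The gene mt-Co1, a cytochrome oxidase subunit, was at 36798, 28688 and 54139 CPM in ENR control and 11298, 13114 and 12012 CPM with RANKL (log2 change -1.72, SE 0.184, adjusted p = 2.82e-06). Of 78 nuclear genes for respiratory chain subunits 6 rose and 4 fell (with the covariate, 0 higher and 11 lower), with a median of 0.05. The difference from the mitochondrial mRNAs was not tested. The 9 higher without offsets became 18 without ENR control replicate 2 and 4 or 5 without ENR control replicate 1 or 3 or RANKL replicate 1 or 2. The mitochondrial calls were all lost with the ribosomal RNA covariate, where 5 of 7 kept their sign. Proteasome subunits gave 15 higher and none lower of 36 (with the covariate, 1 higher and 3 lower), by at most 0.80 on the log2 scale, and the median of 0.29 went to -0.10 with that covariate. The 21 higher without offsets became 11, 12 and 13 without ENR control replicate 1, ENR control replicate 3 and RANKL replicate 1. Aminoacyl-tRNA synthetases gave 4 higher and 13 lower of 37 (with the covariate, 2 higher and 5 lower).

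Amino acid metabolism held some of the largest falls. Of 21 genes of the urea cycle and of glutamine and sulfur amino acid metabolism 11 fell and 3 rose (with the covariate, 1 higher and 10 lower). Cps1, which makes carbamoyl phosphate for the urea cycle, was at 545, 765 and 539.7 CPM in ENR control and 44.1, 31.4 and 22.9 CPM with RANKL (log2 change -4.22, SE 0.248, adjusted p = 2.29e-06). Otc, the next enzyme, was at 48.6, 65.4 and 48.4 CPM in ENR control and 4.49, 3.73 and 3.66 CPM with RANKL (log2 change -3.78, SE 0.165, adjusted p = 3.79e-11). Oat, which links ornithine to proline and glutamate, was at 1059, 1296 and 1029.8 CPM in ENR control and 268, 240.3 and 211 CPM with RANKL (log2 change -2.24, SE 0.109, adjusted p = 1.19e-10). Every RANKL library was far below the lowest control for all 3 genes, which were picked among genes whose groups do not overlap. Cbs, the entry to transsulfuration, was at 26.7, 27.9 and 25.1 CPM in ENR control and 1.46, 1.02 and 0.542 CPM with RANKL (log2 change -4.67, SE 0.217, adjusted p = 7.05e-11), while Gclc, which limits glutathione synthesis, rose by 1.77 (log2). The amino acid transporter genes Slc7a8 (log2 -4.56) and Slc6a19 (log2 -3.53) fell and Slc38a2 (log2 1.23) rose, within 8 higher and 8 lower of 29 (with the covariate, 5 higher and 8 lower). For these transporters that is 27.6% each way, not far from the 23.0% and 22.2% of all genes.

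Genes of lipid synthesis and of glycolysis rose more often than they fell. Of 29 sterol and fatty acid synthesis genes 20 rose and none fell (with the covariate, 6 higher and 0 lower), with a median of 0.71. Scd1, the stearoyl-CoA desaturase, was at 31.7, 32.4 and 32.4 CPM in ENR control and 357, 291 and 159 CPM with RANKL (log2 change 3.06, SE 0.333, adjusted p = 0.000375), with RANKL libraries that differed among themselves more than the controls did. Its paralog Scd2 rose by 1.80 (log2), the sterol enzyme gene Cyp51 by 1.26 (log2), and the regulator gene Srebf2 was not called without offsets (log2 0.13) and was higher with GC offsets (log2 0.40). Scd1 (log2 3.25) and Scd2 (log2 1.26) were not called with the covariate. Of 18 fatty acid oxidation and ketogenesis genes 3 rose and 6 fell (with the covariate, 1 higher and 5 lower), with a median of -0.22. Slc27a2, which activates long-chain fatty acids, had a log2 change of -2.22 (SE 0.104, adjusted p = 7.64e-11), and the acyl-CoA thioesterase gene Acot1 was at 21.1, 24.4 and 28.6 CPM in ENR control and 6.17, 6.89 and 6.5 CPM with RANKL (log2 change -1.91, SE 0.152, adjusted p = 3.63e-08). Of 28 glycolysis and hypoxia genes 20 rose and 3 fell (with the covariate, 14 higher and 2 lower). Ldha, lactate dehydrogenase, was at 299, 351 and 313 CPM in ENR control and 805, 723 and 622 CPM with RANKL (log2 change 1.16, SE 0.099, adjusted p = 8.79e-08), and Egln3, an oxygen-sensing hydroxylase, rose by 2.54 (log2). Vegfa, another hypoxia target, was not called (log2 -0.10), nor was it with GC offsets (0.02), but it was lower without ENR control replicate 2 (adjusted p = 0.000614) and higher with the ribosomal RNA covariate (adjusted p = 0.000282).

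Enterocyte gene groups held members that changed in each direction. Of 15 brush border hydrolases 5 rose and 4 fell (with the covariate, 5 higher and 2 lower). The shares that rose and fell, 33.3% and 26.7%, were not far from the 23.0% and 22.2% of all genes. Dpp4, dipeptidyl peptidase, was at 71, 92.1 and 64.9 CPM in ENR control and 7.41, 9.83 and 11.1 CPM with RANKL (log2 change -3.03, SE 0.157, adjusted p = 2.51e-10), and Anpep (log2 -1.61) fell as well. Alpi (log2 1.98) and Ace (log2 1.08) rose. Of 31 cytochrome P450 genes 5 rose and 12 fell (with the covariate, 2 higher and 6 lower), with Cyp1a1 at 0, 0.133 and 0.228 CPM in ENR control and 6.62, 5.65 and 4.47 CPM with RANKL, a count ratio of 48.3 (exact interval 13.1 to 402). The 229 solute carriers gave 68 higher and 56 lower, or 29.69% and 24.45%, against 23.0% and 22.2% over all genes. With the covariate 42 were higher and 39 lower, larger shares than over all genes (1442 and 1446 of 13570). Slc2a6, a sugar transporter of lysosomes, was at 0, 0 and 0.228 CPM in ENR control and 37.8, 39 and 27.5 CPM with RANKL, a count ratio of 601 (exact interval 108 to 23784). Of 23 tested zinc transporters and metallothioneins 5 rose and 6 fell (with the covariate, 4 higher and 7 lower). These shares, 21.7% and 26.1%, were near the 23.0% and 22.2% of all genes. Among them, the uptake transporter Slc39a4 rose by 1.32 (log2) while Slc39a5 (log2 -2.68) and the metallothionein gene Mt1 (log2 -1.35) fell. Anpep (log2 -1.33) and Cyp1a1 (log2 7.20) were not called with the ribosomal RNA covariate.

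Of 7 tested apolipoproteins 5 rose and 2 fell (with the covariate, 3 higher and 1 lower). Apoa1, the main protein of high-density lipoprotein, was at 183, 116 and 189.7 CPM in ENR control and 643, 574 and 565 CPM with RANKL (log2 change 1.87, SE 0.152, adjusted p = 5.91e-07), and Apoc3 rose by 2.23 (log2). Apob, the backbone of chylomicrons, was at 1884, 2430.3 and 1992 CPM in ENR control and 1343, 1296 and 1273 CPM with RANKL (log2 change -0.69, SE 0.0964, adjusted p = 1.88e-05). All RANKL libraries were above the controls for Apoa1 and below them for Apob, as the choice of named genes required. Over 38 tested glutathione, glucuronosyl and sulfotransferases, the conjugating enzymes of detoxification, 9 rose and 11 fell (with the covariate, 4 higher and 9 lower), or 23.7% and 28.9%, near the shares over all genes of 23.0% and 22.2%. Sult2b1, a cholesterol sulfotransferase, was at 2.88, 1.87 and 2.74 CPM in ENR control and 22, 19.3 and 17.7 CPM with RANKL (log2 change 3.02, SE 0.202, adjusted p = 4.53e-09), and Mgst1, a membrane glutathione transferase, was at 44, 52.1 and 45.7 CPM in ENR control and 10.4, 10.6 and 12.7 CPM with RANKL (log2 change -2.08, SE 0.123, adjusted p = 1.15e-09).

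Several channel and neuronal genes were at or near 0 counts in the controls. Kcnj15, an inward-rectifier potassium channel, was at 0, 0 and 1.14 CPM in ENR control and 100.0, 117 and 131 CPM with RANKL (log2 change 8.54, SE 0.342, adjusted p = 1.86e-10). Kcnj15 was not called with the ribosomal RNA covariate (log2 8.87, adjusted p = 0.104), and neither were Dscam (log2 5.79) and Camk2a (log2 2.3). Dscam, a neuronal adhesion molecule, had 0 counts in every ENR control and 22.4, 28.5 and 27.9 CPM with RANKL, and was at least 149-fold higher. The kinase gene Camk2a had 0 counts in every ENR control and 18.3, 25 and 32.8 CPM with RANKL, and was at least 142-fold higher. Adgrd1, an adhesion receptor, was at 0, 0.133 and 0.457 CPM in ENR control and 119.5, 119 and 140.3 CPM with RANKL, a count ratio of 714 (exact interval 244 to 3465). In all, 65 tested genes had 0 counts in every ENR control, and none had 0 in every RANKL library. A gene at 0 in every control passed the low-count filter through its RANKL counts alone, so its direction was fixed by that filter. ENR control replicates 1 and 3 also held fewer counts outside the ribosomal RNA loci than any other library. A gene with 0 counts in the controls could have been present at up to 0.176 CPM, the level of 3 counts over the group.

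Of 29 tested axon guidance genes 13 rose and 9 fell (with the covariate, 10 higher and 6 lower). The semaphorin genes Sema4c (log2 1.73) and Sema6d (log2 1.44) rose, and Sema7a (log2 -1.29) fell. Nrp1, a semaphorin and VEGF receptor, was at 9.6, 12.5 and 10.1 CPM in ENR control and 0.786, 1.24 and 0.948 CPM with RANKL (log2 change -3.43, SE 0.257, adjusted p = 1.72e-08). Of 29 synaptic genes 9 rose and 8 fell (with the covariate, 6 higher and 1 lower), or 31.0% and 27.6%, not far from the 23.0% and 22.2% of all genes. Syt8, a synaptotagmin of vesicle release, was at 6.91, 4.66 and 6.4 CPM in ENR control and 98.2, 99.7 and 112 CPM with RANKL (log2 change 4.14, SE 0.136, adjusted p = 2.09e-12), and Shank2, a scaffold that also anchors epithelial channels, was at 113, 89.6 and 129 CPM in ENR control and 13.1, 11.8 and 13.9 CPM with RANKL (log2 change -3.09, SE 0.137, adjusted p = 4.28e-11). The groups were apart in each of these 3 genes, as the choice of named genes required. Of 9 sodium and calcium channel subunits 5 rose and none fell (with the covariate, 4 higher and 0 lower), with Cacna2d1 at 0.576, 0.533 and 2.28 CPM in ENR control and 40.6, 40.3 and 42.5 CPM with RANKL (log2 change 5.34, SE 0.248, adjusted p = 7.05e-11).

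Secreted, signalling and transport genes were among the largest falls. Slit2, a guidance ligand of Robo receptors, was at 423, 409.7 and 444 CPM in ENR control and 21.7, 30.3 and 39.8 CPM with RANKL (log2 change -3.81, SE 0.158, adjusted p = 3.27e-10). Pdgfa, the growth factor that epithelium sends to the mesenchyme, was at 304, 279 and 326 CPM in ENR control and 20.7, 21.1 and 27.1 CPM with RANKL (log2 change -3.73, SE 0.112, adjusted p = 8.4e-13). Neither gene's groups came near each other, and both were picked among genes whose groups do not overlap. The matrix proteoglycan gene Prelp was at 19.4, 17.1 and 22.8 CPM in ENR control and 0.449, 0.113 and 0.542 CPM with RANKL (log2 change -5.70, SE 0.301, adjusted p = 2.66e-10), the water channel gene Aqp1 at 152, 156 and 141 CPM in ENR control and 12.7, 16.5 and 12.5 CPM with RANKL (log2 change -3.43, SE 0.112, adjusted p = 1.99e-12). The muscarinic receptor gene Chrm3 (log2 -3.79) and the adrenergic receptor gene Adra2a (log2 -3.82) fell as well. Among abundant genes that rose, the epithelial Clca4b was at 24.6, 24 and 21.9 CPM in ENR control and 699, 744 and 709 CPM with RANKL (log2 change 4.93, SE 0.0959, adjusted p = 1.52e-14).

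Of counts outside the ribosomal RNA loci, genes of long noncoding biotypes other than Malat1 and Neat1 took 1.57%, 1.56% and 1.51% in the controls and 1.42%, 1.47% and 1.61% with RANKL. The groups overlapped on that scale. On the same scale nuclear Malat1 took 1.1%, 0.934% and 1.05% in the controls and 2.79%, 2.88% and 3.27% with RANKL. In the edgeR fit, which uses TMM-scaled library sizes, its log2 change was 1.46 (SE 0.115, adjusted p = 3.21e-08). The paraspeckle RNA Neat1 was at 639, 641 and 641 CPM in ENR control and 4309, 4235 and 3744 CPM with RANKL (log2 change 2.68, SE 0.0901, adjusted p = 2.42e-12). Firre, a nuclear RNA that organizes chromosomes, fell (log2 -0.84), so the nuclear long RNAs did not all rise. Its call was lost, at log2 0.06, with the ribosomal RNA covariate. The intergenic 9430037G07Rik was at 0.576, 0.533 and 0.457 CPM in ENR control and 23.7, 28.4 and 33.7 CPM with RANKL (log2 change 5.71, SE 0.274, adjusted p = 9.2e-11) and Gm830 at 22.3, 23.7 and 21.5 CPM in ENR control and 0.449, 0 and 0.271 CPM with RANKL (log2 change -6.46, SE 0.32, adjusted p = 1.22e-10). Among biotypes, 121 genes annotated as sense intronic had a median of 0.73 (0.46 with GC offsets) and 713 annotated as unconfirmed had 0.54 (0.25), against -0.03 for 11463 protein-coding genes. Reads from unspliced RNA can fall in both classes, and the part of such RNA in these medians was not tested.

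At the ribosomal RNA loci, Gm26917 was at 332482, 198530.0 and 431011 CPM in ENR control and 82454, 74149.9 and 75605 CPM with RANKL (log2 change -2.05, SE 0.221, adjusted p = 1.27e-06), and Gm42418 at 33965, 22343 and 39381 CPM in ENR control and 10269, 9829.9 and 9117 CPM with RANKL (log2 change -1.71, SE 0.164, adjusted p = 4.2e-07). Leaving the loci out before scaling gave 7706 called genes in place of 7699.

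Markers of other cells were looked at in all 6 libraries. Of 9 epithelial markers, Epcam (log2 0.17) and Cdh1 (log2 0.02) were not called without offsets, and Epcam was higher with GC offsets (log2 0.33). Krt8, Krt19 and Krt20 rose and Krt18 fell. The call of Krt8 was lost without any one of 4 libraries, ENR control replicates 1 and 3 and RANKL replicates 1 and 2 (adjusted p = 0.0722 to 0.0976). It was also lost with the ribosomal RNA covariate (adjusted p = 0.555). Of 18 blood cell markers 6 had any count and 1, Cd68, was tested and not called (log2 -0.35). The pan-leukocyte Ptprc was at 0.38 and 0.045 CPM on average in ENR control and RANKL, and the B cell gene Cd79a was at 0 in every library. Of 14 stromal and endothelial markers 8 had a count, with Col1a2, Col3a1 and Dcn at 0. The 3 tested were Pdgfrb (log2 1.58) and Vwf (log2 0.94), which rose, and Pdgfra (log2 -1.39), which fell. The level of these markers is low throughout, and their part in other changes was not tested.
 Vwf (log2 1.17) and Pdgfra (log2 -1.55) were not called with the ribosomal RNA covariate.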

How the data were processed

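RNA was taken from 1 µg per sample, depleted of ribosomal RNA and sequenced as 42-bp pairs, per the labels' protocols. The authors deposited raw gene counts and a second table of normalized log2 values, used here only as an alternative. Per the submitters' processing notes, which assign no roles, STAR, HTSeq 0.13.5, DESeq2 1.34.0 and the build mm10 (GRCm38) were used. The annotation, strand setting and STAR version were not given in the sources used here. Reads of genes lying over each other on opposite strands may therefore be mixed. Libraries of the other 2 groups were not used here.

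Counts of the 6 libraries were tested with edgeR 4.0.16 (filterByExpr, TMM, robust quasi-likelihood F test, Benjamini-Hochberg adjusted p under 0.05) in R 4.3.3, without the replicate number as a block. CPM uses TMM-scaled library sizes. GC offsets were the lowess trend (span 0.3) of each library's log2 CPM, less the mean over libraries, against the GC content of the longest transcript in GENCODE M21, to which 53647 of 55335 entries were matched. SE is the size of the log2 change from the same fit without a prior count, divided by the square root of F. No SE is given where a group had no counts. The steps were tested on simulated data. Alternatives were DESeq2 1.42.0, limma 3.58.1 on the deposited log2 values, RLE and upper-quartile factors, other low-count filters, the replicate block, ribosomal RNA loci left out or as a covariate, and leaving out each library.

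The gene lists, and the choice of this comparison, were made with earlier results of these data known. Genes are named by a rule: 14 set genes; in each of 80 lists, the 3 higher and 3 lower genes with the smallest p called in both fits, with a mean log2 CPM of 1 or more and groups that do not overlap (all members where 6 or fewer were tested); the 15 largest changes each way (mean log2 CPM of 3 or more); the 8 largest each way among abundant genes (mean log2 CPM of 7 or more); and 5 long noncoding RNAs each way. Ace, Bcl3, Birc2, Cdh1, Epcam, Esrrg, Fas, H2-D1, H2-K1, Hoxc6, Hoxd3, Ikbkb, Ikbkg, Itgb8, Ldha, Map3k14, Map3k7, Nfatc1, Nfkb1, Nfkbiz, Nr1h4, Nr1i3, Onecut3, Pcna, Rel, Rela, Ripk2, Rpl4, Scd1, Srebf2, Tnfrsf1a, Tnfrsf1b, Tnip3, Top2a, Traf2, Traf3, Vegfa and all genes too low to be tested were chosen outside the rule, after their values were seen. A fold against controls at 0 counts is set against 3 counts over the group, and count ratios with 1 to 3 control counts have exact 95% binomial intervals, both for counting error only.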

Additional observations from a re-analysis of the deposited data

How the results depend on the processing

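The count of 7699 called genes was 6377 to 8453 under GC offsets, other scaling, other low-count filters, DESeq2, limma on the deposited log2 values and removal of the ribosomal RNA loci, and 6649 to 8200 with 1 library left out. With the ribosomal RNA share as a covariate 2888 genes were called, 1442 higher and 1446 lower, and 2559 of those matched the calls of the fit with GC offsets; the cause was not tested. The Spearman rho with GC content was -0.365 to -0.272 with 1 library left out, and -0.000343 with GC offsets, which are built to remove it. The replicate block gave 7701 called genes. Deviations of same-numbered libraries from their group means correlated at 0.00407, 0.0569 and -0.00689, so the numbers are not taken to pair the samples, and not every library correlated best with its own number. Log2 changes that turned sign with the ribosomal RNA covariate were those of Cd68 (0.75), Cdh1 (-0.26), Epcam (-0.24), Firre (0.0629), Ikbkb (0.30), Ikbkg (-0.000188), Nfatc1 (0.38), Nfkbiz (0.34), Rel (-0.30), Rps27l (-0.17), Tab1 (0.069) and Vegfa (0.82). With GC offsets, and with the replicate block and GC offsets together, they were those of Ikbkb (0.12 and 0.12), Ikbkg (-0.019 and -0.0193) and Vegfa (0.0211 and 0.0358). With 1 library left out, Cdh1 ran from -0.0227 (without ENR control replicate 3) to 0.0729, Ikbkb from -0.0987 to 0.0368 (without ENR control replicate 1), Map3k14 from -0.0498 (without ENR control replicate 2) to 0.296 and Vegfa from -0.279 (without ENR control replicate 2) to 0.0249 (without ENR control replicate 3). Of 198 named genes 39 kept their sign but lost their call with the covariate, against 0 to 4 under each other setting. ENR control replicates 1 and 3 held the fewest counts outside the ribosomal RNA loci, which limits genes near 0 counts there.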
